A study of Mus musculus with 1470 samples.

Results

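The C-type lectin receptors of myeloid cells examined here are the products of 10 genes, Clec4f, Clec1b, Clec4n, Clec7a, Clec4a1, Clec4a3, Clec4d, Clec10a, Clec9a and Clec12a. They were chosen by name, and each was found once among the 14915 gene rows of the table. Non-parenchymal cells, the liver cells other than hepatocytes, came from male wild-type C57BL/6J mice that received normal chow (ND) or a high-fat diet (HFD) for several weeks from a young age. Single live cells were sorted into wells, and their full-length cDNA was read by Smart-seq2, which carries no molecular identifiers and does not mark the strand. There were 718 cells of 3 ND mice and 752 cells of 3 HFD mice. The cell titles of 5 mice each carry a prefix of their own and those of HFD mouse 2 carry none, so that a mouse and any batch behind its prefix cannot be told apart.

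C-type lectin receptors are surface proteins that bind sugars or other ligands on microbes, platelets and dying cells. Activating members signal through the kinase Syk, either by a motif in their own tail or by pairing with the adaptor Fc receptor gamma chain, encoded by Fcer1g, and inhibitory members recruit phosphatases such as SHP-1, encoded by Ptpn6. In the liver, Clec4f is a classical marker of Kupffer cells, the resident macrophages of the sinusoids, whereas other members are known from monocytes, neutrophils and dendritic cells.

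All of the genes but Clec10a lie on chromosome 6 in the GRCm38.p6 annotation, the assembly of mm10. Clec4a1 (122921848 to 122934619), Clec4a3 (122952515 to 122969878), Clec4n (123229843 to 123247024) and Clec4d (123262107 to 123275268) form a block of 353.4 kb on the plus strand. Clec12a (129349783 to 129365303), Clec1b (129397297 to 129405413), Clec9a (129408862 to 129424764) and Clec7a (129461591 to 129472785) form a block of 123 kb, in which Clec7a alone is on the minus strand. Clec4f stands apart at 83644542 to 83656116, and Clec10a is on chromosome 11 at 70166623 to 70170836. The 250 bases before the start of 4 genes are printed, since these genes led in different cells (Clec4f in Kupffer-like cells, Clec4a1 and Clec4a3 together in monocyte-derived cells, Clec4d in neutrophil-like cells). They are RefSeq sequences of GRCm38.p6, 5′ to 3′ on the strand of the gene, and capitals mark GAGGAAG or its reverse complement CTTCCTC, the core letters bound by the myeloid factor PU.1.
Clec4f, chr6:83656117-83656366, minus strand: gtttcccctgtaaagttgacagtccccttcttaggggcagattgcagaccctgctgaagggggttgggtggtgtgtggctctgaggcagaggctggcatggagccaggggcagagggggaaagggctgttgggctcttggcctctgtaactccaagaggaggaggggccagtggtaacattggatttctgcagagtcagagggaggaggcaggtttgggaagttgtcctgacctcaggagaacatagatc
Clec4a1, chr6:122921598-122921847, plus strand: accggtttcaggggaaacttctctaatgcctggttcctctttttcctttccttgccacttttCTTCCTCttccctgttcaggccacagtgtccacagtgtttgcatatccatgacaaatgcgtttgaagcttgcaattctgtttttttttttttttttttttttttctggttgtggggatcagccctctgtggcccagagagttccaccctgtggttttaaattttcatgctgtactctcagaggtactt
Clec4a3, chr6:122952265-122952514, plus strand: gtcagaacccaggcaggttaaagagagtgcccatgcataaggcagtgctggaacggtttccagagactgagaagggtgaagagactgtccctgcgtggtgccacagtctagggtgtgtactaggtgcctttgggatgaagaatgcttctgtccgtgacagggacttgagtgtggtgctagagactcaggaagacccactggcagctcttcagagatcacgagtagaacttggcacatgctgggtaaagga
Clec4d, chr6:123261857-123262106, plus strand: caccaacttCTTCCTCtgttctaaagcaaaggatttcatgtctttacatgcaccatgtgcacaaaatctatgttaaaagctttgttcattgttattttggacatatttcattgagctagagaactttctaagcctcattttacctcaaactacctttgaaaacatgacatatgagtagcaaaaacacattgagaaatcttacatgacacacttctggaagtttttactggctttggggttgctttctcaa

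Promoter windows of 8 of the 10 genes were at hand, and those of Clec4n and Clec10a were not used here. The letters GAGGAAG, searched on both strands from 250 bases before to 50 after the start, were found in 3 of the 10 windows of these genes (Clec7a and Clec4a3 have 2 each), those of Clec4a1, Clec4d and Clec12a. They were found in 13.63% of 32851 promoters of the same length. The match began at -188 from the start of Clec4a1, at -241 for Clec4d and at -61 for Clec12a, and no letters of this kind stood in the window of Clec4f or Clec4a3. The Clec12a window was set on a start other than the one given above. It began at 129349994, so that its match lies within the gene span given above. A match describes these letters and does not show binding.

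Values are read counts scaled to exon length and to the mapped reads of the cell (RPKM). The level of a gene in a class of cells is the mean of log2(RPKM + 1) over the cells of a mouse, with the mouse as the replicate. This scale understates the change of low genes. Classes were rebuilt by clustering without the 10 genes and named from marker genes, so that "Kupffer-like" and the like stand for clusters. They held 255 Kupffer-like cells, 49 cells of monocytes, monocyte-derived macrophages and dendritic cells together (MoMac-DC-like), 14 neutrophil-like cells, 22 plasmacytoid dendritic cells (pDC-like), 459 endothelial-like, 247 B-like, 54 NK-like, 35 hepatocyte-like and 30 erythrocyte-like cells, and T-like cells made up 20.7% of the total. All 12 markers listed for the Kupffer-, neutrophil- and pDC-like classes were detected in them, and 19 of 20 for MoMac-DC-like cells. The number of exon reads per cell, estimated from the steps of low RPKM values, had medians of 86950 to 197225 over mice and was higher in MoMac-DC-like (200861) and pDC-like cells (202742) than in Kupffer-like (92358) and neutrophil-like cells (89446). HFD mouse 2 had the fewest genes per cell, with a median of 1596 against 2364 to 3163 in the other mice. A read was worth 2.54 to 7.14 RPKM across the 10 genes, so shares of cells are given for at least 10 reads where stated, and counts of cells with a gene above 0 include cells with a few reads.

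Each of the 10 genes had its highest level in a myeloid class. Clec4f, Clec1b and Clec4n were highest in Kupffer-like cells, Clec4a1 and Clec4a3 in MoMac-DC-like cells, Clec7a and Clec4d in neutrophil-like cells, and Clec10a, Clec9a and Clec12a in pDC-like cells. The range over mice did not overlap that of the next class for Clec4f, Clec4a3 and Clec4d. For the other 7 genes the highest and the next class overlapped. A Kupffer-like cell had a median of 5 of the 10 genes above 0, as had a MoMac-DC-like cell, against 2 in an endothelial-, T-, B- or NK-like cell.

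**Figure D1:**
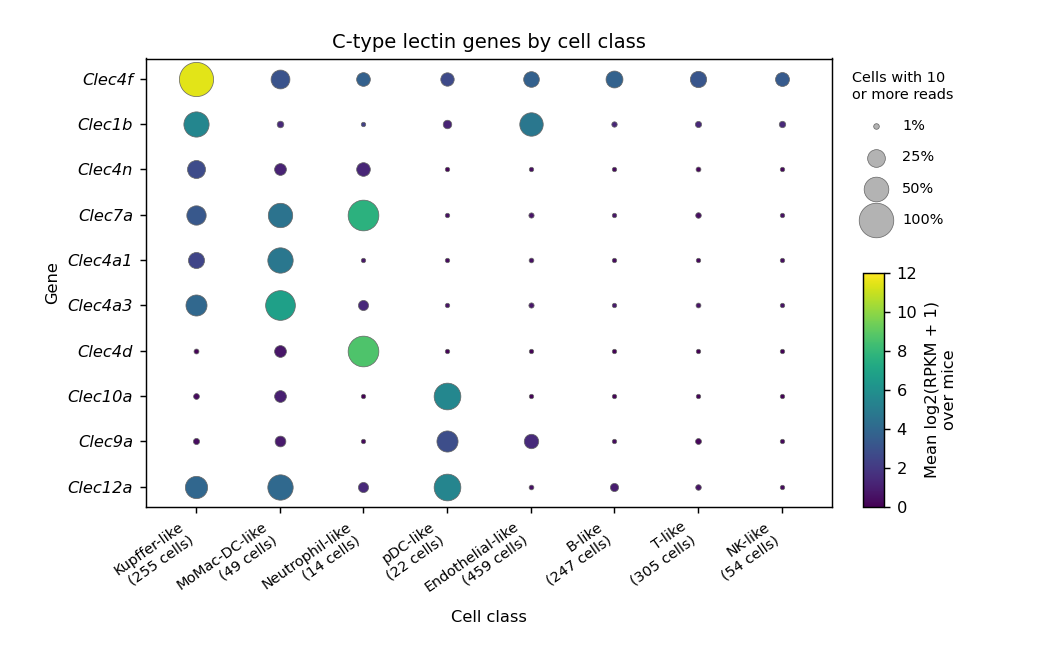
Mean level over mice (colour, log2(RPKM + 1)) and share of cells with at least 10 reads (area of the circle) of the 10 genes in 8 classes of cells. Clec4f stands at 11.46 in Kupffer-like cells, Clec4d at 8.64 in neutrophil-like cells and Clec10a at 5.57 in pDC-like cells, while Clec1b is high in both Kupffer-like and endothelial-like cells.

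Clec4f, a galactose-binding receptor of Kupffer cells, was the most abundant of the 10 genes. Its level in Kupffer-like cells was 11.37, 12.36 and 11.64 in ND mice 1, 2 and 3 and 11.76, 11.15 and 10.49 in HFD mice 1, 2 and 3. In MoMac-DC-like cells it was 2.13, 3.44 and 3.71 in the ND mice and 2.74, 1.499 and 4.85 in the HFD mice. All 6 mice were thus far above their MoMac-DC-like level, with no overlap. At least 10 Clec4f reads were found in 250 of the 255 Kupffer-like cells, over all 6 mice. The difference was 8.40 ± 0.54 (SE, n = 6 mice), higher in 6 of 6 mice (limma with Benjamini-Hochberg adjustment over all genes, adjusted p = 0.00149, exact sign-flip permutation test p = 0.0312, the smallest that 6 mice can give). Estimation of the spread with a mean-variance trend ended this call (adjusted p = 0.635).

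Clec4f was also read at a low level in every other class, from 2.71 in pDC-like to 3.75 in B-like cells. At least 10 reads were found in 33.3% of erythrocyte-like, 28.6% of MoMac-DC-like, 22.7% of B-like, 20.98% of T-like and 19.2% of endothelial-like cells, and in 13.6% to 14.8% of the cells of the other 4 classes, so that 10 reads did not set Kupffer-like cells apart for this gene. A median of 2.98 to 6.98 reads stood behind the cells where it was above 0 in the 9 other classes. Its mean RPKM was 12.7% of the summed mean RPKM of 5 other Kupffer genes, C1qa, C1qb, C1qc, Cd5l and Vsig4, in Kupffer-like cells. The same ratio was 6.99% in MoMac-DC-like cells and between 10.48% and 14.7% in the other 8 classes, although the sum there was at most 1.18% of that in Kupffer-like cells. In MoMac-DC-like cells, the summed level of the 12 Kupffer markers was 7.22 to 48.4 per mouse, against 98.9 to 113.9 in Kupffer-like cells, and none of the 12 was at 0. HFD mouse 3 had the highest sum and also the highest Clec4f level in these cells. The part of RNA from Kupffer cells in these values was not tested.

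**Figure D2:**
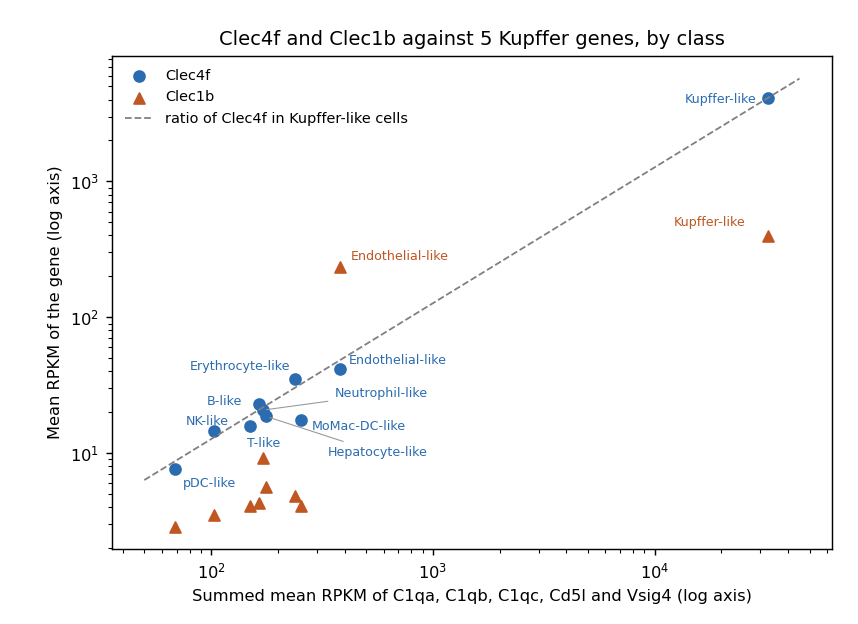
Mean RPKM of Clec4f (circles) and Clec1b (triangles) against the summed mean RPKM of C1qa, C1qb, C1qc, Cd5l and Vsig4, one point per class, both axes on a log scale. The circles lie near the dashed line that carries the Kupffer-like ratio of 12.7%, while Clec1b in endothelial-like cells lies far above the other triangles at 61.1% of the sum.

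Clec1b encodes CLEC-2, a receptor for podoplanin that signals through Syk. In Kupffer-like cells its level was 5.07, 4.62 and 5.87 in the ND mice and 6.28, 3.25 and 7.86 in the HFD mice, and in MoMac-DC-like cells 0.60, 0.61 and 1.64 against 2.14, 0.57 and 2.87. The 2 sets of values did not overlap, and Kupffer-like cells were higher in 6 of 6 mice. The difference was 4.09 ± 0.29 (SE, n = 6 mice, limma, adjusted p = 0.00196). Endothelial-like cells came next, at 4.74 ± 0.70 (SD, n = 6 mice) against 5.49 ± 1.57 in Kupffer-like cells. The ranges overlapped, and the Kupffer-like level was higher in 5 of 6 mice, all but HFD mouse 2, a difference that was not tested. At least 10 reads were found in 52.5% of Kupffer-like and 45.1% of endothelial-like cells, in all 6 mice in both, and in 0 to 4.55% of the cells of the other classes. Unlike Clec4f, Clec1b did not keep a like ratio to the 5 Kupffer genes, at 1.22% in Kupffer-like and 61.1% in endothelial-like cells.

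The endothelial-like cells fell into a smaller cluster led by Fam167b and Ramp2 and a larger one led by Gpr182 and Dnase1l3. Clec1b had at least 10 reads in 71.3% of the former and 31.5% of the latter. Its level was 6.78, 6.25, 4.85, 6.16, 3.43 and 7.41 in the former in ND mice 1 to 3 and HFD mice 1 to 3, and 3.23, 3.18, 4.07, 4.42, 4.10 and 4.71 in the latter. It was higher in the Fam167b-led cells in 5 of 6 mice, all but HFD mouse 2, which is a description, since these clusters were drawn from the same cells. Clec14a, an endothelial member of the same superfamily, stood at 7.02 and 5.08 in these clusters, and Stab2, a scavenger receptor of sinusoidal endothelium, at 9.75 and 8.69.

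Clec4n encodes Dectin-2, which binds fungal mannans and pairs with the Fc receptor gamma chain. Its level in Kupffer-like cells was 2.07, 3.49 and 3.32 in the ND mice and 3.78, 0.36 and 3.39 in the HFD mice, with HFD mouse 2 far below the others. In MoMac-DC-like cells it was 0, 0.10 and 1.10 in the ND mice and 2.06, 1.51 and 2.10 in the HFD mice. Kupffer-like cells were higher in 5 of 6 mice, by 1.59 ± 0.56 (SE, n = 6 mice), which did not pass the test (limma, adjusted p = 0.153). Without HFD mouse 2 the difference was 2.14 and passed (adjusted p = 0.0305). At least 10 Clec4n reads were found in 25.9% of Kupffer-like cells, 2 of 14 neutrophil-like cells, 10.2% of MoMac-DC-like cells and 0.328% of T-like cells, and in none of the 459 endothelial-like cells, which allows a share of up to 0.654%.

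Clec7a encodes Dectin-1, the receptor for beta-glucans, which signals through Syk and Card9. Its order was neutrophil-like cells at 7.65 ± 2.17 (SD, n = 6 mice), MoMac-DC-like at 4.58 ± 1.16 and Kupffer-like at 3.27 ± 1.17. Neighbours in this order overlapped, and the Kupffer-like range of 1.604 to 4.67 overlapped, outside these 3, with that of NK-like cells alone, whose highest mouse was at 1.82. At least 10 reads were found in 78.6%, 49.0% and 30.2% of the cells of the 3 classes. Kupffer-like cells were below MoMac-DC-like cells by 1.31 ± 0.37 (SE, n = 6 mice), with this direction in 6 of 6 mice, but the adjusted p was 0.0908. Neutrophil-like cells were above MoMac-DC-like cells by 3.07 ± 0.99 in 5 of 6 mice (adjusted p = 0.174).

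Clec4d encodes MCL, an activating receptor that forms a pair with Mincle, the product of Clec4e. In neutrophil-like cells its level was 9.33, 10.39 and 10.40 in the ND mice and 10.33, 7.12 and 4.26 in the HFD mice, from 2 or 3 cells each. In MoMac-DC-like cells it was 0, 1.39 and 0.58 in the ND mice and 2.09, 0 and 0 in the HFD mice. No neutrophil-like value came near the MoMac-DC-like ones. Clec4d was above 0 in 13 of 14 neutrophil-like cells, 7 of 255 Kupffer-like cells and none of the 14 dendritic cells of the MoMac-DC class. The difference from MoMac-DC-like cells was 7.96 ± 0.79 (SE, n = 6 mice, adjusted p = 0.0204), higher in 6 of 6 mice, and Clec4d was the only 1 of the 10 genes called there, where 2.63% of 13492 genes were called, 0.23% as higher and 2.4% as lower. The median difference was -0.19 over the 10 genes and -0.18 over all. Clec4d fell outside the threshold in 7 of 12 alternatives, among them the fits without ND mouse 1, 2 or 3 or HFD mouse 1 or 2, with the same direction and adjusted p from 0.00355 to 0.143 over the 12. With classes from marker scores the difference was 4.61. Clec4e itself stood at 2.95 ± 3.06 (SD, n = 6 mice) in neutrophil-like and 1.37 ± 1.03 in MoMac-DC-like cells, and did not pass the test.

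Clec4a1 and Clec4a3 encode DCIR4 and DCIR3, neighbours in the dendritic cell immunoreceptor family. The Clec4a1 level in MoMac-DC-like cells was 4.42, 4.94 and 4.73 in the ND mice and 5.02, 2.72 and 6.63 in the HFD mice, and in Kupffer-like cells 2.80, 2.56 and 2.50 against 2.97, 0.997 and 2.84. The ranges overlapped only through HFD mouse 2, and within each mouse the MoMac-DC-like value was higher. The difference, Kupffer-like minus MoMac-DC-like, was -2.30 ± 0.29 (SE, n = 6 mice, adjusted p = 0.0102). The call was lost when RPKM values were averaged before the logarithm (-1.17, adjusted p = 0.163). Clec4a1, Clec4f and Clec1b were the 3 of the 10 genes called between these classes, where 7.73% of 13492 genes were called, 2.22% as higher and 5.51% as lower. The median difference was -0.49 over the 10 genes and -0.13 over all.

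Clec4a3 was the most abundant of the 10 genes in MoMac-DC-like cells. It was at 5.07, 7.68 and 5.57 in the ND mice and 5.37, 8.33 and 8.50 in the HFD mice there, and at 4.81, 4.89 and 4.22 against 4.26, 1.04 and 4.76 in Kupffer-like cells. The 2 classes did not overlap, but the Kupffer-like minus MoMac-DC-like value of a mouse ran from -7.29 to -0.26, and the mean difference of -2.76 ± 0.94 (SE, n = 6 mice) had an adjusted p of 0.142. All 30 MoMac-DC-like cells with Clec4a1 also had Clec4a3, which was above 0 in 40 of the 49. Over 46 means of a class in a mouse, Clec4a1 and Clec4a3 had Pearson's r of 0.87, the highest among the 45 pairs of the 10 genes. These points share libraries and depth. In neutrophil-like cells Clec4a1 and Clec4a3 were lower than in MoMac-DC-like cells in 6 of 6 mice, by differences of -4.06 and -5.38 (adjusted p = 0.0547 and 0.0615). The 20 MoMac-DC markers had summed levels of 17.97 to 38.2 per mouse in Kupffer-like cells against 61.5 to 94.3 in MoMac-DC-like cells, with none at 0, and the part of RNA from those cells in the Kupffer-like levels was not tested.

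Clec12a encodes MICL, an inhibitory receptor that recognises uric acid crystals. It was shared by 3 myeloid classes, at 5.48 ± 2.49 (SD, n = 4 mice) in pDC-like, 4.03 ± 1.06 (n = 6 mice) in MoMac-DC-like and 3.96 ± 0.42 (n = 6 mice) in Kupffer-like cells, whose ranges overlapped. Kupffer-like and MoMac-DC-like cells differed by -0.08 with a 95% interval of -0.88 to 0.73 (adjusted p = 0.914). The difference turned to 0.83 when RPKM values were averaged before the logarithm (limma, adjusted p = 0.142). At least 10 reads were found in 59.1% of pDC-like, 53.1% of MoMac-DC-like and 40.4% of Kupffer-like cells, and 1 of 14 neutrophil-like cells. Such reads were also found in 4.05% of B-like cells, from 5 mice.

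Clec10a and Clec9a, known from dendritic cells, were nearly absent from Kupffer-like cells. Clec10a encodes MGL1, which binds galactose-type sugars. Its level in pDC-like cells was 7.94 in ND mouse 1 and 5.32, 2.22 and 6.79 in HFD mice 1, 2 and 3, and ND mice 2 and 3 had 1 cell each, at 3.45 and 0. It was above 0 in 15 of 22 pDC-like cells. Of the 15, 11 had Cd209a, which was above 0 in 12 of the 22. Siglech, a defining pDC gene, was above 0 in all 22. In MoMac-DC-like cells Clec10a was at 0.999 ± 1.15 (SD, n = 6 mice), with at least 10 reads in 10.2% of the cells. Of the 14 dendritic cells of that class 2 had at least 10 reads, both of HFD mouse 1. In Kupffer-like cells the Clec10a level was 0.31 ± 0.22 (SD, n = 6 mice), and none of 14 neutrophil-like cells had a read, so that a share of up to 21.4% would be possible. Of the 50-base windows in the Clec10a transcripts, 9.02% were also found in other genes, so reads there would not have been unique.

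Clec9a encodes DNGR-1, which binds actin filaments exposed by dead cells and is known from cross-presenting dendritic cells. It was at 2.83 ± 2.46 (SD, n = 4 mice) in pDC-like and 0.81 ± 1.10 (n = 6 mice) in MoMac-DC-like cells. The pDC-like mean rested largely on HFD mouse 2 at 6.19, while ND mouse 1 and HFD mice 1 and 3 were at 2.89, 1.83 and 0.40. In MoMac-DC-like cells 9 of 49 cells had Clec9a above 0, of which 6 had Batf3, 1 had Xcr1 and 0 had Cadm1, all 3 genes of cross-presenting dendritic cells. These genes were above 0 in 16, 1 and 10 of the 49 cells. At least 10 Clec9a reads were found in only 4 of the 49 cells, 1 of ND mouse 1 and 3 of ND mouse 3. The 6 cells with Batf3 came from 2 mice. Endothelial-like cells came between, at 1.42 ± 0.47 (n = 6 mice), with at least 10 reads in 16.1% of them. Clec9a starts 3448 bases after the end of Clec1b on the same strand, and 4.02% of the 50-base windows of its annotated transcripts were also found in Clec1b transcripts. Among endothelial-like cells, at least 10 Clec9a reads were found in 24.6% of 207 cells with at least 10 Clec1b reads and in 9.13% of 252 cells without them, but ND mouse 3 went the other way, with 13.6% and 16.1%. Clec9a also followed the endothelial-like clusters, with at least 10 reads in 26.8% of the Fam167b-led and 10.6% of the Gpr182-led cells. In Kupffer-like cells the shares were 2.99% with such Clec1b reads and 0 without them, the latter allowing up to 2.48%. The authors kept reads that mapped to 1 place, and whether Clec1b reads had a part in these Clec9a values was not tested.

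**Figure D3:**
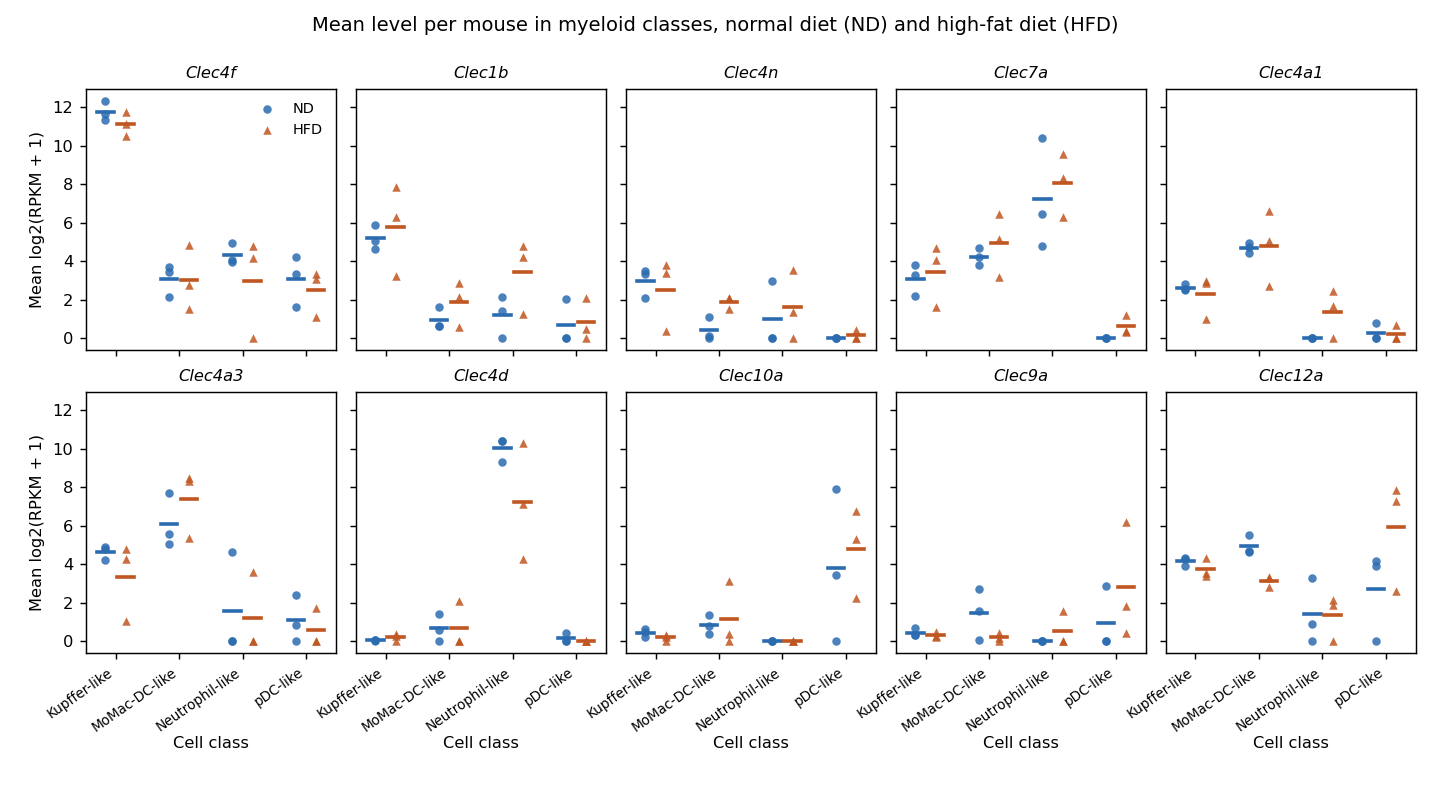
Level of each of the 10 genes, mean log2(RPKM + 1), in 4 myeloid classes, one point per mouse, ND as circles and HFD as triangles, with bars at the mean of each diet and mice with 1 cell of a class included. Clec4f in Kupffer-like cells and Clec4d in neutrophil-like cells stand clear of the other classes, and Clec12a in MoMac-DC-like cells lies lower in all 3 HFD mice.

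Against the mean of 4 non-myeloid classes, Kupffer-like cells were higher for 7 of the 10 genes. The comparison used the mean of the endothelial-, T-, B- and NK-like levels of each mouse, of which the endothelial-like Clec1b level overlapped the Kupffer-like one, and of 13492 genes 27.2% were called, 7.13% as higher in Kupffer-like cells and 20.1% as lower. The 7 genes were Clec4f, Clec12a, Clec4a3, Clec1b, Clec7a, Clec4n and Clec4a1, by 2.05 to 7.95 (limma, adjusted p = 0.000198 to 0.00788), each in 6 of 6 mice. Clec10a, Clec4d and Clec9a differed by 0.20, 0.07 and -0.19 and did not pass. MoMac-DC-like cells were higher for 4 genes, Clec4a3 by 6.07, Clec4a1 by 4.35, Clec7a by 4.01 and Clec12a by 3.42, each in 6 of 6 mice (adjusted p = 0.00137 to 0.00629), where 10.1% of all genes were called, 5.46% as higher and 4.62% as lower. The median difference over the 10 genes was 2.56 for Kupffer-like and 0.86 for MoMac-DC-like cells, against -0.10 and 0.02 over all genes.

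Within the MoMac-DC-like cells, clustering on their own gave 14 cells led by class II genes and Cd209a (cDC-like, conventional dendritic cells) and 35 monocyte-derived-like cells. A division of the latter into 17 cells led by Ms4a4c and Ly6c2 and 18 led by Ace and Ear2, the genes of classical and patrolling monocytes, was chosen after the data were seen. Clec4a3 was at 8.92 ± 1.06 (SD, n = 5 mice) in Ly6c2-led, 7.80 ± 2.58 (n = 5 mice) in Ace-led and 2.83 ± 1.45 (n = 4 mice) in cDC-like cells, and had at least 10 reads in 17 of 17, 15 of 18 and 4 of 14 cells. Clec7a was at 6.71, 3.84 and 2.04 and Clec4a1 at 5.67, 4.58 and 2.08 in the same order. In HFD mouse 2 Clec4a1 ran the other way, at 1.03, 2.18 and 4.25. Clec12a was seen in all 3 clusters, with at least 10 reads in 12 of 17, 7 of 18 and 7 of 14 cells.

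Clec4n and Clec4d each had at least 10 reads in 5 of 17 Ly6c2-led cells, from 3 mice, and in 0 of 18 Ace-led and 0 of 14 cDC-like cells, where shares of up to 16.7% and 21.4% would be possible. Clec4n above 0 was also seen outside that cluster, in 3 Ace-led and 1 cDC-like cell beside 7 Ly6c2-led cells, and the clusters were not tested against each other. Of these 11 cells, 10 had Ly6c2 and 9 had Ccr2, which were above 0 in 36 and 33 of all 49 cells, and 2 had Clec4d, which was above 0 in 5. Between cDC-like and monocyte-derived-like cells, none of the 10 genes passed, and of 13492 genes 0% were called by limma, with 805 genes at an unadjusted p under 0.05. Only 4 mice had at least 2 cells of both kinds. Clec4a3 was lower in cDC-like cells in 4 of 4 mice, by a difference of -5.54 with a 95% interval of -7.66 to -3.43 (adjusted p = 0.45), and Clec7a in 4 of 4 mice by -3.52 (adjusted p = 0.738). Clec4a1 was lower there in 3 of 4 mice, by -3.90 (limma, adjusted p = 0.799). For Clec9a all 4 mice had the larger value in cDC-like cells, by 1.404 with an interval of -0.21 to 3.02 (adjusted p = 0.799). At least 10 Clec9a reads were found in 2 of 14 cDC-like and 2 of 35 monocyte-derived-like cells, and in 0 cDC-like cells of HFD mice 1 and 2.

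**Figure D4:**
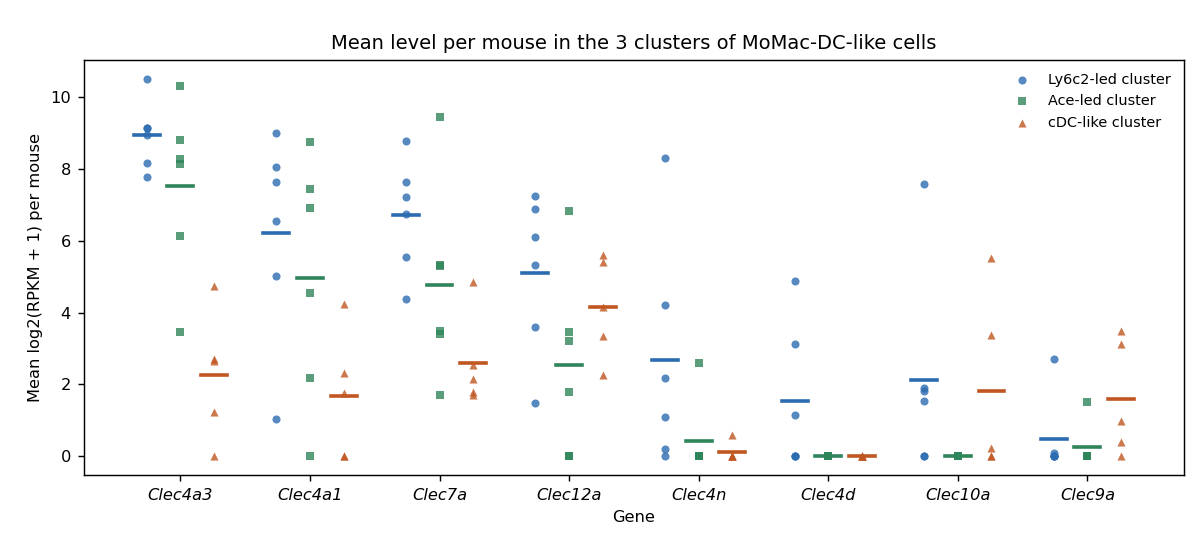
Level of 8 of the genes, mean log2(RPKM + 1), in the 3 clusters of MoMac-DC-like cells, one point per mouse with cells of the cluster and a bar at the mean of the points, which, unlike the means in the text, include mice with 1 cell. Clec4a3 lies at 7.78 or above in every mouse in the Ly6c2-led cluster and at 4.75 or below in the cDC-like cluster.

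The diets were compared in Kupffer-like cells (24 to 60 per mouse) and MoMac-DC-like cells (6 to 11 per mouse). In each class 7 of the 10 genes had a mean level of at least 1 and were tested, and Clec4d, Clec10a and Clec9a did not reach it. In Kupffer-like cells none of the 7 passed, where 0.0299% of 3349 genes were called by limma and 69 had an unadjusted p under 0.05. All 7 overlapped between diets, while 5.17% of the 3349 genes did not. The median difference was -0.41 over the 7 genes and -0.20 over all genes tested. Without HFD mouse 2, the mouse with the fewest genes per cell, the median over the 7 was 0.28, and the signs of Clec4n (0.63) and Clec4a1 (0.28) changed. Clec4f was at 11.79 on average in the ND mice and 11.13 in the HFD mice, with a difference of -0.66 and a 95% interval of -1.81 to 0.50. With all mice Clec4a3 had the widest gap, -1.28 with an interval of -2.84 to 0.27, and HFD mouse 2 at 1.04 was the only mouse below 4. Without HFD mouse 2 the Clec4a3 difference was -0.12. The widest were then Clec1b at 1.88 (0.61 with all mice) and Clec7a at 1.28 (0.36 with all mice). Clec1b was at -0.42 without HFD mouse 3. Each adjusted p of limma with all mice was 0.9999. The smallest exact permutation p with 3 mice against 3 is 0.1.

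In MoMac-DC-like cells none of the 7 passed either, and of 4966 genes 0% were called by limma, with 240 at an unadjusted p under 0.05. The median difference was 0.70 over the 7 genes and -0.28 over all genes tested. Without HFD mouse 2 the median over the 7 was 1.13. Clec12a was at 5.50, 4.64 and 4.68 in the ND mice and 3.26, 3.34 and 2.79 in the HFD mice, so that every ND mouse was above every HFD mouse. The difference was -1.81 with a 95% interval of -3.42 to -0.21 (adjusted p = 0.995, exact permutation p = 0.1). Clec4n moved the other way without overlap, from 0 to 1.10 in the ND mice to 1.51 to 2.10 in the HFD mice, a difference of 1.49 with an interval of -0.13 to 3.11 (adjusted p = 0.995, exact permutation p = 0.1). These levels rested on few cells. At least 10 Clec4n reads were found in 0, 0 and 1 cells of ND mice 1 to 3 and in 2, 2 and 0 cells of HFD mice 1 to 3. No overlap between diets was seen for 9.93% of the 4966 genes. In the same cells the summed level of 12 T cell markers, none at 0, was 7.12 to 13.02 in the ND mice and 3.79 to 4.68 in the HFD mice, and that of 6 erythrocyte markers, 2 of them at 0, was 2.24 to 4.51 and 0.74 to 2.08. Both sets were lower in the HFD mice without overlap, as Clec12a was, and their part in these differences was not tested. Clec4a3 differed by 1.29 in MoMac-DC-like cells and by -1.28 in Kupffer-like cells, and without HFD mouse 2 by 0.83 and -0.12. The test of whether the diet difference was another one in the 2 classes called 0% of 4314 genes, with 4.89% at an unadjusted p under 0.05, and gave an adjusted p of 0.946 for Clec4a3 and Clec4n and 0.979 for Clec12a. On the within-mouse difference between classes, Clec4n and Clec12a did not overlap between diets, nor did 9.9% of all genes.

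**Figure D5:**
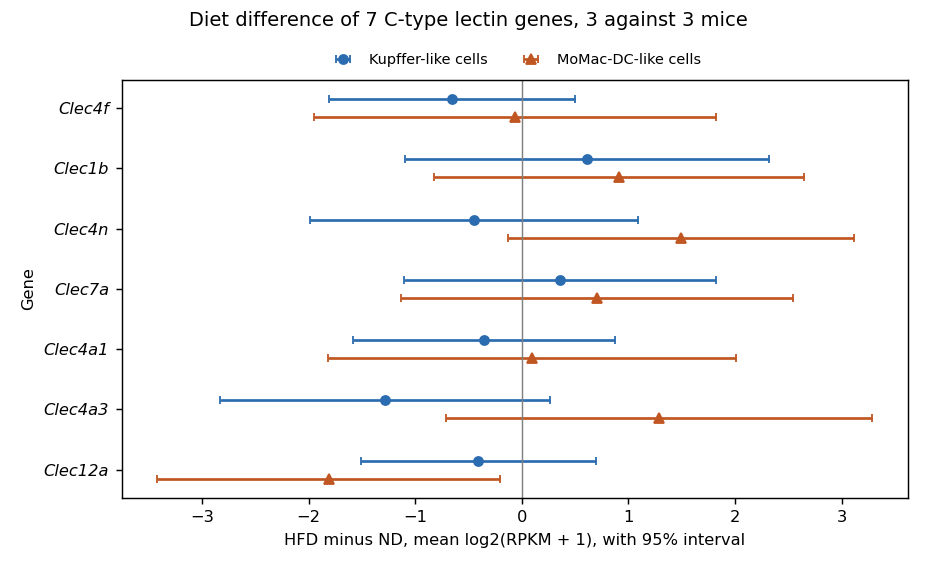
Difference HFD minus ND in mean log2(RPKM + 1) of the 7 genes tested, 3 against 3 mice, with the 95% interval of limma, in Kupffer-like (circles) and MoMac-DC-like cells (triangles). Each interval in Kupffer-like cells crosses 0, and in MoMac-DC-like cells only that of Clec12a, at -3.42 to -0.21, does not.

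The genes that act below these receptors were taken from a list of 18. Adaptors were high in Kupffer-like cells, with Fcer1g at 10.62 ± 0.57 and Tyrobp, the adaptor DAP12, at 11.35 ± 0.43 (SD, n = 6 mice). Neither passed against MoMac-DC-like cells, where Fcer1g was at 10.78 and Tyrobp at 11.85 (adjusted p = 0.854 and 0.0874). Of the 18 genes, 10 were lower in Kupffer-like than in MoMac-DC-like cells and none was higher, where 5.51% of all genes were lower. Their median difference was -1.70 against -0.13 over all genes. Among the 10 were the kinases Syk (-1.63) and Prkcd (-4.78), the phospholipase Plcg2 (-2.70), Bcl10 and Malt1, which relay Syk signals to NF-kB (-1.37 and -1.29), Nfkb1 (-2.11), Nfatc1 (-2.11) and the phosphatases Ptpn6 (-3.37) and Inpp5d (-2.69). Against non-myeloid cells 4 of the 18 were higher in Kupffer-like cells, among them Fcer1g, Tyrobp and Lyn, and 2, Rel and Nfatc1, were lower, where 7.13% of all genes were higher and 20.1% lower. In MoMac-DC-like cells 10 of the 18 were higher, among them Fcer1g, Tyrobp, Lyn, Inpp5d, Nfkb1, Ptpn6, Plcg2, Syk and Prkcd, where 5.46% of all genes were higher. Both classes were set against the same non-myeloid cells. Kupffer-like cells had the lower read depth, and its part in these differences was not tested.

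Of 29 other C-type lectin genes listed, 26 were in the table and 20 were tested between classes. Mrc1, the mannose receptor, was the only 1 of the 20 called between Kupffer-like and MoMac-DC-like cells, where 7.73% of all genes were, and was higher by 3.57 ± 0.13 (SE, n = 6 mice, adjusted p = 0.000553). It stood at 5.48 in Kupffer-like cells and at 7.41 in endothelial-like cells, and so was not higher in Kupffer-like cells than in each non-myeloid class. Against the mean of the 4 non-myeloid classes Mrc1, Clec4a2 (the inhibitory receptor DCIR1, by 1.55), Cd209f and Clec4b1 were higher in Kupffer-like cells, and 7 of the 20, Clec4g, Cd69, Clec14a, Clec2i, Clec2d, Cd93 and Ly75, were lower, beside 7.13% of all genes higher and 20.1% lower. In MoMac-DC-like cells 5 of the 20, Mrc1, Clec4g, Clec14a, Cd69 and Cd72, were lower and none was higher, beside 4.62% of all genes lower and 5.46% higher. In pDC-like cells Cd209a and Cd209d, relatives of DC-SIGN, stood at 4.55 ± 1.50 and 3.69 ± 1.11 (SD, n = 4 mice) and Cd72 at 4.32 ± 3.94.

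The genes most like each of the 10 were ranked by Pearson's r over the 46 class-by-mouse means. They were Fcna (0.99), C1qa and Cd5l for Clec4f, and Cxcr2 (0.97), Csf3r and Ccr1 for Clec4d. For Clec7a they were Lilrb4 (0.94), Tnfaip2 and Cebpb, for Clec4a1 Emr4 (0.91), Lyz1 and Tnfsf13, and for Clec4a3 Emr4 (0.89) and Clec4a1. For Clec12a they were Cd68 (0.86), Cybb and Pld4, and for Clec1b Itga9 (0.85), 2510009E07Rik and Cd81. Clec4n had Gbp2b (0.81) and Trf, Clec10a had Rpl31-ps12 (0.93), Hoxa7 and Net1, and Clec9a had Wdr13 (0.80), Ddn and 4930512B01Rik. The points share libraries, depth and classes, and Fcna, C1qa, Cd5l, Cxcr2, Csf3r and Trf were among the markers that named the classes.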

How the data were processed

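Per the labels and the methods, the authors aligned reads of single liver cells to mm10 with STAR, after bcl2fastq, kept unique reads and deposited RPKM values from rpkmforgenes on RefSeq genes; they had filtered cells for quality and taken out Scrublet doublets, so none were called again here. RPKM are not counts, so no count test was used, and all 1470 cells (0 columns left over) were assigned to mice by their labels. No 2 cells had identical values. The members, gene lists and marker lists were chosen with earlier results of these data known.

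Depth was estimated from the steps of low values. With annotated lengths 41.4% of these values lay within 0.05 of a whole read, 88.6% after correction of the lengths and 11.6% with shuffled lengths; in simulation 17 of 20 cells came within 5%. Floors (3 counts for a count of 0) and read numbers cover counting error only, whereas the 95% intervals of limma cover the spread between mice.

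Cells were clustered on 1000 variable genes, 20 principal components and a graph of 15 neighbours by spectral clustering into 13 clusters, and MoMac-DC-like cells by k-means on 500 genes and 10 components. A cluster was named from marker lists when at least 3 markers were detected and its leading 10 genes did not favour another class. The way of choosing variable genes and the minimum of 13 clusters were revised after clusters were seen but before levels of the 10 genes were compared; Clec4f and Clec4d had by then appeared among leading genes. The 3 clusters of MoMac-DC-like cells, the division of endothelial-like cells and the limit of 10 reads were chosen after the data were seen.

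Class differences within mice (at least 2 cells in both classes, genes with RPKM of at least 1 in at least 10 cells) and diet differences (at least 3 cells, genes with mean log2(RPKM + 1) of at least 1) were tested with limma without a mean-variance trend and Benjamini-Hochberg adjustment over all genes. P-values measure the spread between mice. Single genes also had exact two-sided permutation tests. On simulated data, 200 genes shifted by 2 were recovered in 76.5% (Kupffer-like against MoMac-DC-like), 43% (neutrophil-like), 94.5% and 80% (against non-myeloid), 24% (cDC-like), 29% (diet in Kupffer-like) and 0% (diet in MoMac-DC-like, diet by class). The share of unshifted genes among the calls was 5.56%, 3.37%, 9.57%, 5.88%, 11.1% and 1.69% for the first 6 of these, so that the threshold of 0.05 was exceeded in 4 of them. The pairing of mice by number was checked by the correlation of their deviations over genes: none of the same-numbered pairs exceeded 0.1, so the main tests have no block.

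Genes named are the 10 members, the 3 genes most like each, and genes of 2 lists (other C-type lectins, signal partners) that passed a test or reached a mean of 3 in a myeloid class. Clec4e, Stab2 and cluster-leading genes were named beyond this rule. Clec4b2, Clec3b and Clec12b were not analysed here. Some genes that this rule names are not reported here. Scripts ran under R 4.3.3 with limma 3.58.1 and under Python 3.11.15 with scikit-learn 1.9.0, pandas 2.3.3, scipy 1.17.1 and numpy 2.4.6.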

Additional observations from a re-analysis of the deposited data

How the results depend on the processing

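Of 893 values of single genes under alternatives (a pseudocount of 0.1, averaging before the logarithm, a mean-variance trend, no filter, rescaled RPKM, classes from marker scores, at least 3 cells, the replicate block, leaving out each mouse), 867 kept their side of the threshold with no change of sign beyond 1 SE, 9 lost the call, 6 gained it, 11 values that were not called changed sign by more than that, and 0 called values reversed. Besides the changes of Clec4f, Clec4a1, Clec4n and Clec4d given above, Clec4a1 in neutrophil-like cells passed with averaging first and without HFD replicate 2 (limma, adjusted p = 0.00984 and 0.00212). Clec9a in Kupffer-like cells was below the non-myeloid mean without ND replicate 2 (limma, adjusted p = 0.0237). Clec1b in MoMac-DC-like cells was below that mean with averaging first or marker scores (limma, adjusted p = 0.0149 and 0.0223). In the main setting only endothelial-like cells, of the 4 non-myeloid classes, had the higher mean level (Clec9a 1.42 against 0.38, Clec1b 4.74 against 1.405). The causes were not tested.

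With averaging before the logarithm, 5.06% of genes in place of 7.73% were called between Kupffer-like and MoMac-DC-like cells, 9.06% in place of 2.63% (2 of the 10 genes in place of 1) for neutrophil-like cells, 17.5% in place of 27.2% and 18.2% in place of 10.1% for Kupffer-like and MoMac-DC-like against non-myeloid cells, 0.0222% in place of 0% for cDC-like cells and 0% in place of 0.0299% for diet in Kupffer-like cells. Neutrophil-like calls among the 10 genes fell to 0 with the trend, and with marker scores 0% of genes and 0 of the 10 were called. Rescaled RPKM gave 0.00741% for cDC-like cells. Diet in Kupffer-like cells gave 0.0597% with the trend and 0% without a filter. With the replicate block it gave 0.0896%, none of them among the 10 genes, and the block changed no other call. The mice share only a number: correlations of same-numbered mice were -0.07 to 0.08.

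Leaving out 1 mouse gave 3.77% (without HFD replicate 1) to 5.73% for Kupffer-like against MoMac-DC-like cells (3 to 4 of the 10 genes), 0.163% (without ND replicate 2) to 0.986% for neutrophil-like cells (0 to 1 of the 10), 17.2% (without ND replicate 1) to 26.7% and 5.94% (without HFD replicate 1) to 8.26% for Kupffer-like and MoMac-DC-like against non-myeloid cells (7 to 8 and 4 of the 10), and 0% (without ND replicate 1) to 0.0299% for diet in Kupffer-like cells. K-means classes gave no value for Kupffer-like cells, as no cluster was named MoMac-DC-like or NK-like, and a minimum of 3 cells was not run for neutrophil-like cells, which reached it in both classes in 2 mice. With 14 neutrophil-like and 49 MoMac-DC-like cells, and simulated diet shifts of 2 not recovered in the latter, diet effects of this size were not detectable there.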
